A study of Mus musculus with 24 samples.

Results

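The nuclear genes of oxidative phosphorylation were followed over whole retinas of rd10 mice, a model of inherited rod degeneration, and of wild-type mice. The members are the genes in the nuclear count table whose symbols start with Nduf (complex I), Uqcr (complex III), Cox4 to Cox8 (complex IV) or Atp5 (complex V), together with Sdha, Sdhb, Sdhc and Sdhd (complex II). Of 101 matching symbols among 31346 nuclear genes, 7 were dropped because their names mark pseudogenes and 4 because their mean count over the 24 libraries was under 100. This left 90 members, of which 48 belong to complex I, 4 to complex II, 8 to complex III, 15 to complex IV and 15 to complex V. The mean counts of the 4 genes under the minimum were 93.2 for Atp5g2, 51.5 for Ndufb4c, 15.8 for Cox6a2 and 3.4 for Cox7b2, and the lowest member, Ndufb4, had a mean of 128. All 90 members passed the filter on low counts in each of the 5 comparisons below.

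Oxidative phosphorylation is the last stage of cellular respiration, in the inner mitochondrial membrane. Complex I takes electrons from NADH and complex II takes them from succinate as part of the citric acid cycle. Complex III passes them to cytochrome c, complex IV hands them to oxygen, and complex V, the ATP synthase, uses the proton gradient built by complexes I, III and IV to make ATP. Complexes I, III, IV and V join subunits from the nuclear genome with subunits from mitochondrial DNA, while all subunits of complex II are nuclear. Photoreceptors pack mitochondria into the ellipsoid of their inner segments and are among the cells with the highest oxygen use in the body.

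The 24 retinal samples came from 24 mice, and each is called a retina here, although no source used here says whether 1 or both retinas of a mouse were taken. The rd10 TMB group (n = 8) carried the rd10 point mutation of Pde6b, the beta subunit of rod phosphodiesterase, was reared in the dark, received chow with tamsulosin, metoprolol and bromocriptine from postnatal day 28 and entered vivarium light on day 29. The rd10 vehicle group (n = 8) had the same mutation, rearing and light on base chow. The rd10 DR group (n = 4) had the same mutation and never left the dark. The WT group (n = 4) was C57BL/6J, the background strain of the rd10 mice, and shared the housing of the light-exposed groups. The labels give the rd10 TMB and rd10 vehicle mice an age of 36 days and the rd10 DR mice 30 days, while the design text gives collection on day 37 for these groups and WT and on day 28 for rd10 DR, so that rd10 DR differs from rd10 vehicle in age as well as in light. Each group held as many females as males. The 3 drugs block alpha-1 and beta-1 adrenergic receptors and activate dopamine receptors, and were given together, so no effect can be assigned to a single drug.

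Nuclear counts per library ranged from 56799680 to 86471014, and the members made up 0.68% to 0.79% of them. The rod markers followed the labels. Their summed level, in CPM, counts relative to the library total, scaled by TMM, a factor per library that sets the bulk of the genes to no change, was 21922 to 44152 in rd10 TMB retinas, 9346 to 28923 in rd10 vehicle retinas, 56319 to 61321 in rd10 DR retinas and 92336 to 105147 in WT retinas. Against WT, all 20 rod markers were lower in rd10 vehicle retinas, while 15 of 15 microglial and 14 of 15 Müller glial markers were higher. Fewer cells of a type and less RNA per cell cannot be told apart in a whole retina. The part of these shifts in the results below was not tested. Library titles carry the prefixes B6, RD8, RD9 or RD10, whose meaning the sources do not give. All WT titles have B6 and no rd10 title has it, so prefix and genotype cannot be told apart.

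Some members cannot be measured cleanly. Of the 90, 37 share at least 1 stretch of 75 bases with the transcripts of another gene. Of the same 90, 39 overlap another annotated gene when whole spans are compared, introns included. An unstranded library does not separate the reads where exons overlap, and overlap of exons was not counted. The share of such stretches was 76% in Atp5l, 45.2% in Cox6c2, 35.2% in Ndufb4, 29.1% in Uqcrb, 28.2% in Ndufs3, 25% in Cox7c and 10.7% in Cox6c, and 0% in Uqcrq and Atp5k. Ndufa11b, Ndufs6b and Cox6c2 are annotated as processed pseudogenes. Against WT, 51, 46 and 17 of 90 members were called lower in rd10 vehicle, rd10 TMB and rd10 DR retinas as described below, and 49, 44 and 17 of 87 without these 3.

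In WT retinas the levels were compared between genes per kilobase of summed exon length (RPKM). The highest was Atp5a1, the alpha subunit of the ATP synthase head, at 293 ± 13.7 RPKM (SD, n = 4), followed by the beta subunit gene Atp5b at 257 ± 13.9 RPKM. The order of this pair rests on the length used, since the longest coding transcript is 2674 bases in Atp5a1 and 1916 bases in Atp5b, and Atp5b had the higher raw counts. Both form the catalytic ring of complex V and were named for their rank. The median member of complex III stood at 61.6 RPKM, of complex II at 44.4, of complex I at 33.3, of complex V at 29.6 and of complex IV at 27.5. Within complex IV the common isoforms exceeded those known from muscle or lung. Cox4i1 had 187 RPKM against 31.9 RPKM for Cox4i2, an isoform known for its response to oxygen. Cox7a2 had 49 RPKM against 5.55 RPKM for the heart and muscle isoform Cox7a1. Cox8a had 237 RPKM and the heart and muscle isoform Cox8b 9.12 ± 10.3 RPKM, a mean below its own spread.

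Many nuclear genes of the respiratory chain are known targets of the factors NRF1, YY1, GABPA (of the ETS family) and the estrogen-related receptors (ERR). The promoter table from RefSeq on GRCm38.p6, which runs from 250 bases before to 50 bases after the first listed start of a gene, matched 72 of the 90 members. On either strand, the NRF1 core GCGCATGCG was found in 9 of these 72 (12.5%), against 1.81% of 27025 promoters. The YY1 motif AAGATGGCG was found in 7 (9.72%), against 1.49% of all promoters, and 6 of the 7 belong to complex I. The ETS core CCGGAAGT was found in 5 (6.94%), against 4% of all, and the ERR motif TCAAGGTCA in 2 (2.78%), against 0.407%. The core CTAATCC of the photoreceptor factor CRX was found in 0 of the 72 members, against 2.01% of all promoters. The 7 YY1 matches shared orientation and place, which is why they are shown. Each lies on the strand of the gene and begins 10 to 35 bases after the start. Among the 404 promoters of all genes that hold this motif, 187 (46.3%) have it on the gene's strand after the start. The 30 bases around each match are given 5′ to 3′ on the strand of the gene, with the motif in capitals.
Ndufa9, chr6:126849097-126849126, minus strand: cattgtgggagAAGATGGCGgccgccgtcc
Ndufaf8, chr11:120098933-120098962, plus strand: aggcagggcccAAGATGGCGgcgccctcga
Ndufc1, chr3:51408915-51408944, minus strand: gcctgcggaacAAGATGGCGccgtccgtag
Ndufs4, chr13:114388045-114388074, minus strand: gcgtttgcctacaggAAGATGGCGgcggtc
Ndufs6, chr13:73328433-73328462, minus strand: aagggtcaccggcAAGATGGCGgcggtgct
Ndufs7, chr10:80249462-80249491, plus strand: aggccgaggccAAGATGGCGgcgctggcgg
Atp5j2, chr5:145191500-145191529, minus strand: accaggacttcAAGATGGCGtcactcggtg

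In 6 of the 9 NRF1 matches the core runs on both strands as a 10-base palindrome. The matches begin between 241 bases before and 30 bases after the start. Those of the 2 complex V genes, whose levels are described below, and of Uqcrc1, a core protein of complex III, are shown with the motif in capitals.
Atp5k, chr5:108434430-108434459, minus strand: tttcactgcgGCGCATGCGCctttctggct
Atp5l, chr9:44920963-44920992, minus strand: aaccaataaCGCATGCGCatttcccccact
Uqcrc1, chr9:108936668-108936697, plus strand: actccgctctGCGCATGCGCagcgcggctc

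The summed level of the members was lower in the rd10 groups than in WT when scaled by TMM and did not differ from it in range without TMM. With TMM it was 7199 ± 325 CPM in rd10 TMB retinas (SD, n = 8), 7070 ± 231 CPM in rd10 vehicle retinas (n = 8), 7430 ± 288 CPM in rd10 DR retinas (n = 4) and 8105 ± 437 CPM in WT retinas (n = 4). All 8 rd10 vehicle retinas, 7 of 8 rd10 TMB retinas and 3 of 4 rd10 DR retinas lay below the lowest WT retina. Without TMM, relative to the nuclear total alone, the sums were 7326 ± 299, 7389 ± 230 and 7248 ± 335 CPM in rd10 TMB, rd10 vehicle and rd10 DR retinas and 7347 ± 485 CPM in WT retinas, and no rd10 retina lay outside the WT range of 6785 to 7855 CPM. The share of nuclear counts that fell on the members was thus inside the WT range in each rd10 retina, and the lower sums with TMM are lower relative to the bulk of the other genes.

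In summed CPM with TMM, complex I stood furthest below WT by mean and complex II nearest to it. Complex I summed to 2386 ± 102 CPM in rd10 TMB retinas, 2359 ± 86 CPM in rd10 vehicle retinas, 2491 ± 99 CPM in rd10 DR retinas and 2780 ± 156 CPM in WT retinas, means that lay 14.2%, 15.2% and 10.4% below that of WT. Every rd10 retina was below the lowest WT retina in this sum. Complex II summed to 731 ± 25.4, 731 ± 19.2 and 732 ± 38.1 CPM in rd10 TMB, rd10 vehicle and rd10 DR retinas and to 780 ± 29.5 CPM in WT retinas, means that lay 6.19% to 6.27% below it, with 2 of 8, 2 of 8 and 2 of 4 retinas inside the WT range. The means of complex III lay 11.8% (rd10 TMB), 14.3% (rd10 vehicle) and 7.84% (rd10 DR) below WT, those of complex IV 9.68%, 10.2% and 9.72%, and those of complex V 9.9%, 12.5% and 6.64%. Complex IV overlapped most, with 4 of 8 rd10 TMB, 5 of 8 rd10 vehicle and 2 of 4 rd10 DR retinas below the WT range. The order of the complexes depended on the measure. With each gene weighted equally, the mean log2 ratio to the WT mean, with TMM, was lowest for complex V in rd10 vehicle retinas (-0.31). Complex III had -0.25, complex I -0.22, complex IV -0.19 and complex II -0.11. In rd10 TMB retinas complex V was also lowest (-0.28), beside -0.24 for complex III and -0.21 for complex I. Complex V includes Atp5l, the member with the largest change in both groups, whose values are uncertain, as described below. Its means without Atp5l were not computed. In rd10 DR retinas complex IV was lowest (-0.23), beside -0.21 for complex V, -0.18 for complex III and -0.17 for complex I.

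**Figure D1:**
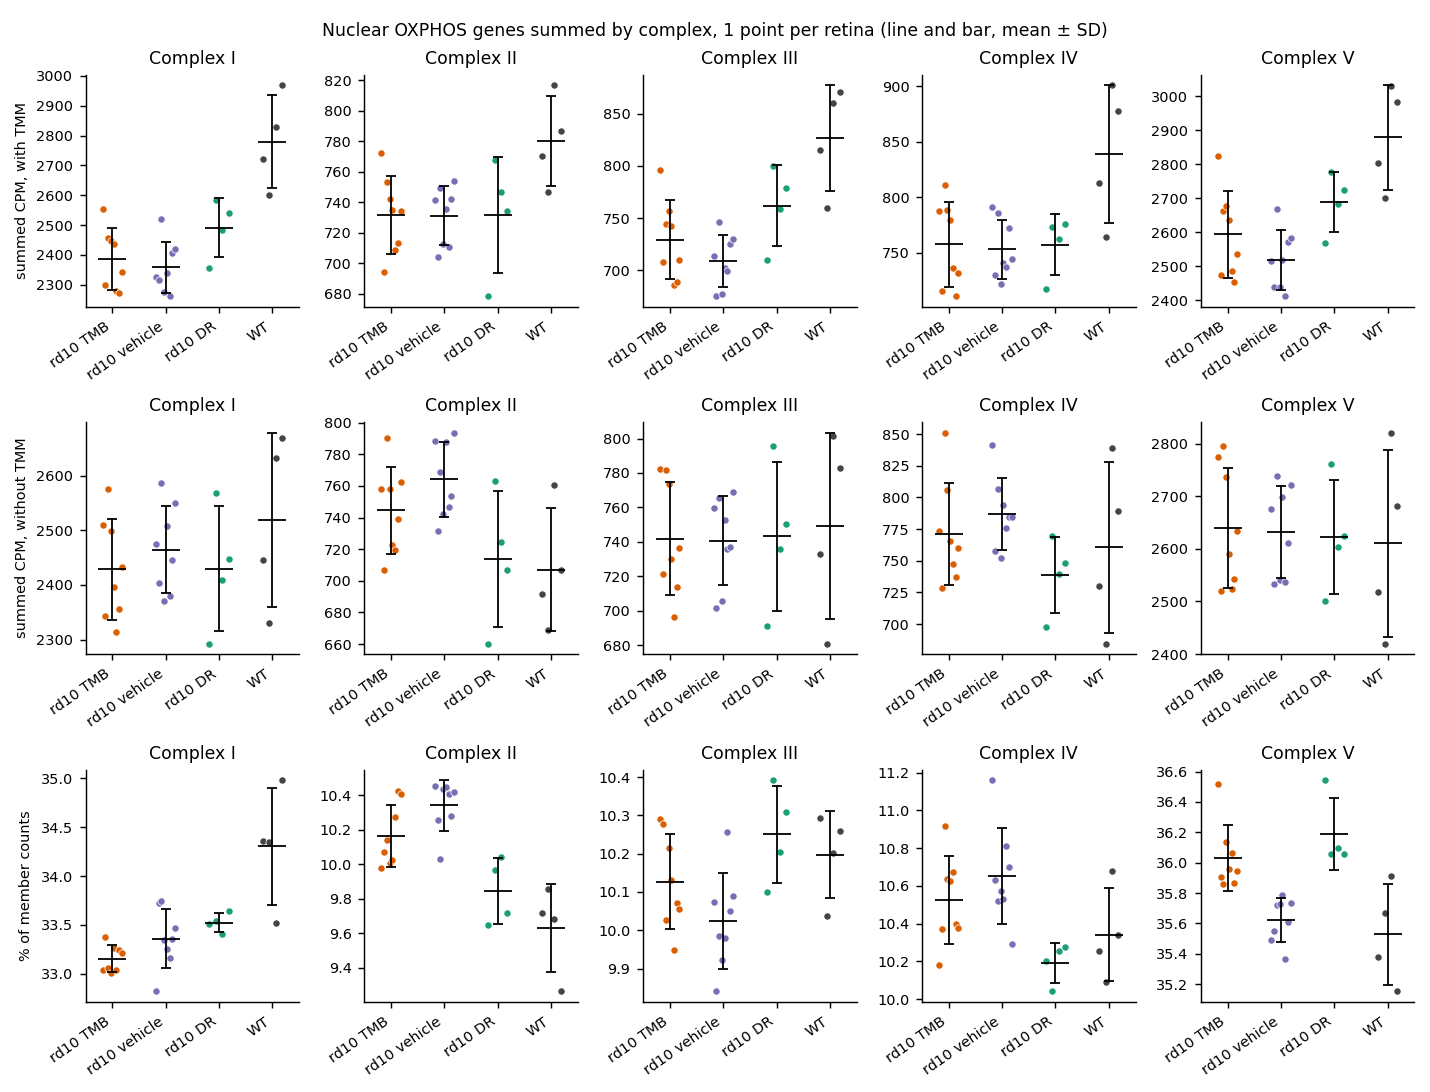
Summed levels of the members of each complex, with 1 point per retina and a line and bar for mean ± SD. The upper row gives CPM with TMM, the middle row CPM without TMM and the lower row the percent of all member counts, on axes that do not start at 0. Complex I lies below WT with TMM in every rd10 retina, and complex II takes a larger percent of member counts in all 16 retinas of the rd10 TMB and rd10 vehicle groups than in any WT retina.

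The share of each complex in the summed member counts does not depend on library scaling. It is weighted toward the genes with the most counts, so it need not hold for a whole complex. In complex II, Sdha had a mean of 35835 counts, beside 4190 to 6961 for Sdhb, Sdhc and Sdhd. In complex V, Atp5b had 70336 and Atp5a1 61235, beside 14463 for Atp5g3, the next highest. Complex II took 10.2% ± 0.18 of member counts in rd10 TMB retinas, 10.3% ± 0.147 in rd10 vehicle retinas, 9.84% ± 0.19 in rd10 DR retinas and 9.63% ± 0.255 in WT retinas. All 8 rd10 TMB and all 8 rd10 vehicle retinas lay above the highest WT retina (9.86%), as did 2 of 4 rd10 DR retinas. Complex I took 33.2% ± 0.137, 33.4% ± 0.3 and 33.5% ± 0.0978 in rd10 TMB, rd10 vehicle and rd10 DR retinas and 34.3% ± 0.598 in WT retinas, with 8 of 8, 6 of 8 and 2 of 4 rd10 retinas below the WT range. Complex V took 36% ± 0.219 in rd10 TMB retinas and 35.6% ± 0.145 in rd10 vehicle retinas, without overlap (lowest rd10 TMB retina 35.9%, highest rd10 vehicle retina 35.8%), and 36.2% ± 0.237 in rd10 DR and 35.5% ± 0.332 in WT retinas. The shares of complex III (10.02% to 10.3%) and complex IV (10.2% to 10.7%) had group means with overlapping ranges. No test was run on sums or shares.

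Gene by gene, edgeR's quasi-likelihood test with Benjamini-Hochberg adjustment called 51 of 90 members lower and 0 higher in rd10 vehicle than in WT retinas, with TMM. Over all genes tested, 30.2% were called lower and 31.6% higher. The members were thus called lower in 56.7% of cases and higher in none (0 at unadjusted p under 0.05 and 0 with DESeq2). Without TMM, 20 were lower and 17 higher, or 22.2% and 18.9% of members, beside 17.2% and 45.0% of all genes. The 20 were all among the 51. Over all genes the median log2 fold change was 0.22 without TMM and 0.01 with it, and over the members it was 0.02 without and -0.18 with TMM. Relative to the median gene the members lay at -0.20 under either scaling. Leaving out TMM moves all genes of a comparison by nearly the same amount, so this match had to arise and tests nothing.

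The count for rd10 TMB against WT was 46 lower and 0 higher with TMM (0 at unadjusted p under 0.05, 0 with DESeq2), beside 24.9% lower and 27.2% higher among all genes. With the 3 rd10 TMB retinas of prefix RD9 alone it was 20, and with the 5 of prefix RD10 it was 50. Without TMM, 16 members were lower and 4 higher, beside 13.1% and 39.0% of all genes. The members lay at -0.20 relative to the median gene, a distance that the scaling hardly can change. For rd10 DR against WT, 17 were lower and 0 higher with TMM (1 higher at unadjusted p under 0.05, 0 with DESeq2), beside 10.2% and 14.5% of all genes, and 7 lower and 1 higher without it, beside 5.84% and 21.8%. The members lay at -0.15 relative to the median gene. The count of 17 rested on single retinas, since it was 11 without WT replicate 4, without rd10 DR replicate 1 or without rd10 DR replicate 3, and 26 without WT replicate 2. The 3 comparisons share the 4 WT retinas, so they are not independent of each other. Of the 90 members, 15 were called lower in all 3 and 36 in none.

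Against WT with TMM, every complex held members called lower in rd10 vehicle and rd10 TMB retinas, and every complex except II in rd10 DR retinas. In rd10 vehicle retinas these were 26 of 48 in complex I, 2 of 4 in complex II, 5 of 8 in complex III, 8 of 15 in complex IV and 10 of 15 in complex V, with median log2 fold changes of -0.19, -0.12, -0.22, -0.16 and -0.19. In rd10 TMB retinas they were 24, 1, 4, 7 and 10 of the same numbers, and in rd10 DR retinas 11, 0, 2, 2 and 2. Over all genes, 30.2%, 24.9% and 10.2% were called lower in rd10 vehicle, rd10 TMB and rd10 DR against WT. Complex II in rd10 TMB and complexes IV and V in rd10 DR retinas were close to these shares. Without TMM the calls in rd10 vehicle retinas went both ways, with 11 lower and 10 higher in complex I, 0 and 2 in complex II, 2 and 1 in complex III, 2 and 2 in complex IV, and 5 and 2 in complex V. Among all genes 17.2% were then lower and 45.0% higher. Of the members with the NRF1 core, 5 of 9 were lower in rd10 vehicle retinas with TMM (median log2 fold change -0.25), and of those with the YY1 motif 4 of 7 (-0.21), beside 51 of all 90 members.

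**Figure D2:**
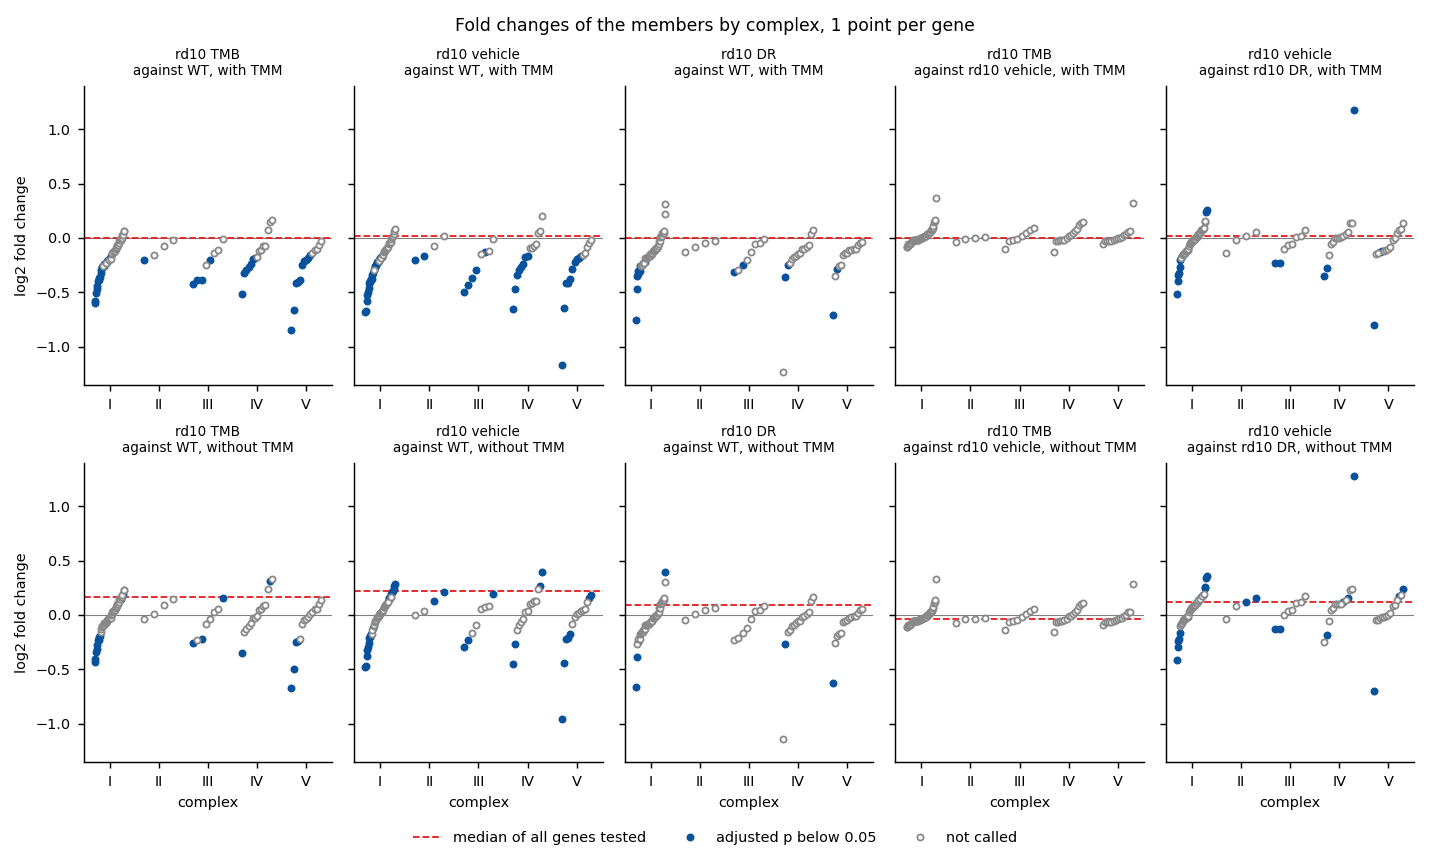
Log2 fold change of each member in the 5 comparisons, grouped by complex, with TMM in the upper row and without it in the lower row. Filled points have an adjusted p below 0.05, and the dashed line is the median of all genes tested. Against WT the members spread below the dashed line in both rows, whose scalings differ by a nearly equal shift of all genes. In rd10 TMB against rd10 vehicle there are 0 filled points.

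Complex I, the NADH dehydrogenase, has a core that carries the flavin and iron-sulfur clusters, accessory subunits around it and assembly factors that are not part of the finished enzyme. Of the 7 nuclear core genes, 6 were lower in rd10 vehicle than in WT retinas with TMM, beside 17 of 33 accessory genes and 3 of 8 assembly factors. The same 3 counts were 6, 16 and 2 for rd10 TMB and 2, 8 and 1 for rd10 DR. Over all genes, 30.2%, 24.9% and 10.2% were called lower in rd10 vehicle, rd10 TMB and rd10 DR against WT. The shares of assembly factors were close to these. Among the core genes, log2 fold changes in rd10 vehicle against WT were -0.32 for Ndufv1, which binds NADH, -0.21 for Ndufs7 and -0.08 for Ndufv2, the gene without a call (adjusted p = 0.24). These core genes and Ndufa4 were named after their values were seen. Without TMM, Ndufv1 was at -0.12 (adjusted p = 0.021), Ndufs7 at -0.01 and Ndufv2 at 0.12. Ndufa4, placed here by its symbol though its protein is now known as a subunit of complex IV, was lower under either scaling (-0.52 with TMM, adjusted p = 1.2e-05, and -0.32 without it).

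For single genes here and below, the values listed for groups of 8 retinas are the lowest, the median and the highest. In groups of 4, each retina is listed. Ndufs3 (chr2:90894634-90904827, minus strand), a core subunit, had 8.93, 9.93 and 11.6 CPM in rd10 TMB retinas, 8.03, 9.33 and 11.8 CPM in rd10 vehicle retinas, 10.8, 10.1, 11.4 and 11.1 CPM in rd10 DR retinas and 13.3, 18.5, 13.4 and 15.8 CPM in WT retinas, without overlap between rd10 and WT. It was 1.59-fold lower in rd10 vehicle than in WT retinas (-0.67, SE 0.11, adjusted p = 8.8e-05), and its log2 fold change in rd10 DR retinas was -0.47 (adjusted p = 0.0099).

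The accessory subunit gene Ndufb4 (chr16:37647170-37654453, minus strand), the weakest member, had 1.38, 1.56 and 2.47 CPM in rd10 TMB retinas, 1.36, 1.61 and 1.98 CPM in rd10 vehicle retinas, 1.55, 1.33, 1.67 and 1.64 CPM in rd10 DR retinas and 2.29, 2.79, 2.61 and 2.85 CPM in WT retinas. The rd10 groups overlapped each other, and the highest rd10 TMB retina passed the lowest WT retina. Its fold changes against WT were 1.60-fold lower in rd10 vehicle (adjusted p = 0.00028) and 1.68-fold lower in rd10 DR retinas (adjusted p = 0.0032). Ndufs6, an accessory subunit with the YY1 motif shown above, had log2 fold changes of -0.34 in rd10 vehicle (adjusted p = 0.0018) and -0.35 in rd10 DR retinas (adjusted p = 0.026). Ndufa1 was lower in rd10 vehicle retinas (-0.37, adjusted p = 0.00072), and in rd10 TMB retinas it had -0.23 (adjusted p = 0.13). Ndufaf8, an assembly factor that also carries the YY1 motif, was lower in rd10 vehicle retinas (-0.42, adjusted p = 0.00042).

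Complex II, succinate dehydrogenase, consists of the flavoprotein SDHA, the iron-sulfur protein SDHB and the membrane anchors SDHC and SDHD. In rd10 vehicle against WT with TMM, Sdha, Sdhb and Sdhd had log2 fold changes nearer 0 than the median member (-0.18), and Sdhc did not. Sdha (chr13:74322254-74350280, minus strand), at 127 RPKM in WT the most abundant of the 4, had 479, 498 and 530 CPM in rd10 TMB retinas, 476, 498 and 519 CPM in rd10 vehicle retinas, 460, 495, 509 and 499 CPM in rd10 DR retinas and 523, 514, 532 and 534 CPM in WT retinas. The rd10 and WT values overlapped. In rd10 vehicle against WT its log2 fold change was -0.08 with TMM (SE 0.04, adjusted p = 0.097) and 0.13 without it (adjusted p = 0.017). Sdhb had 0.01 with TMM (adjusted p = 0.80) and was higher without it (0.22, adjusted p = 0.0020). The anchor genes were lower with TMM, Sdhc by a log2 fold change of -0.20 (adjusted p = 0.0073) and Sdhd by -0.16 (adjusted p = 0.034), but had 0.00 and 0.04 without TMM. The call on each of the 4 genes thus depended on the scaling. In rd10 DR against WT 0 of the 4 were called by edgeR, with log2 fold changes of -0.13 to -0.02 and adjusted p of at least 0.24, and 0 had an unadjusted p under 0.05.

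Complex III is the cytochrome bc1 complex. Its largest change among members called under either scaling was in Uqcrh (chr4:116066965-116075071, minus strand), which encodes the hinge protein at the cytochrome c side. Uqcrh had 55, 60.9 and 68.2 CPM in rd10 TMB retinas, 50.6, 57.7 and 64.3 CPM in rd10 vehicle retinas, 65.3, 68.6, 66.8 and 69.5 CPM in rd10 DR retinas and 78.8, 75.5, 84.2 and 87.0 CPM in WT retinas. Its rd10 DR values lay above all rd10 vehicle values and below all WT values. It was 1.41-fold lower in rd10 vehicle than in WT retinas (log2 fold change -0.49, SE 0.06, adjusted p = 3.0e-06, and -0.29 without TMM). Uqcrq, a small subunit, was 1.35-fold lower (-0.43, adjusted p = 6.3e-05) and Uqcrb, another small subunit, 1.29-fold lower (-0.37, adjusted p = 0.0011). Both were also lower in rd10 TMB retinas (-0.38 and -0.39), and in rd10 DR retinas Uqcrq was lower (-0.31, adjusted p = 0.026) while Uqcrb had -0.30 (adjusted p = 0.062). The large core proteins differed from each other. Uqcrc1 (log2 fold change -0.30, adjusted p = 2.4e-05), whose NRF1 match is shown above, had 231, 249 and 272 CPM in rd10 TMB retinas, 216, 230 and 245 CPM in rd10 vehicle retinas, 251, 288, 272 and 276 CPM in rd10 DR retinas and 295, 271, 289 and 287 CPM in WT retinas. All rd10 vehicle retinas lay below all rd10 DR and WT retinas, and without TMM its log2 fold change was -0.09 (adjusted p = 0.055). Uqcrc2, its partner in the complex, named after its values were seen, had -0.01 with TMM (adjusted p = 0.91) and 0.20 without it (adjusted p = 0.0059).

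Complex IV is cytochrome c oxidase, whose catalytic subunits come from mitochondrial DNA while the nuclear subunits surround them. Cox6c (chr15:35925886-35938246, minus strand) had 29.2, 31.9 and 36.6 CPM in rd10 TMB retinas, 26.0, 30.4 and 31.7 CPM in rd10 vehicle retinas, 33.2, 36.4, 37.2 and 36.1 CPM in rd10 DR retinas and 44.7, 46.0, 45.9 and 48.6 CPM in WT retinas. The 4 WT values stood clear of all 20 rd10 values. It was 1.57-fold lower in rd10 vehicle (log2 fold change -0.65, SE 0.06, adjusted p = 3.0e-07, and -0.45 without TMM), and lower in rd10 TMB (-0.51, adjusted p = 3.4e-06) and rd10 DR retinas (-0.35, adjusted p = 0.0012). Its processed pseudogene Cox6c2, which shares sequence with it, had -0.34 in rd10 vehicle retinas (adjusted p = 0.00067). Cox7c was 1.38-fold lower in rd10 vehicle retinas (-0.47, adjusted p = 0.00046), and had -0.10 in rd10 DR retinas (adjusted p = 0.58).

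Of the 10 complex IV genes that are isoforms of a subunit, 3 were called in rd10 vehicle against WT with TMM, all lower, a share close to the 30.2% of all genes called lower. Among them Cox7a2l, which encodes a factor that joins complexes III and IV into supercomplexes, was lower (log2 fold change -0.29, adjusted p = 0.00024). Cox7a2 (-0.16, adjusted p = 0.031) and Cox7b (-0.18, adjusted p = 0.049) were lower with TMM but had 0.04 and 0.03 without it. Cox4i1 (-0.07), Cox6a1 (-0.10), Cox8a (-0.10), Cox4i2 (0.06), Cox6b2 (0.20), Cox7a1 (0.05) and Cox8b (-0.05) were not called with TMM. Cox4i2 and Cox6b2, an isoform known from testis, were called higher without TMM (0.26, adjusted p = 0.015, and 0.40, adjusted p = 0.039). Atp5g3 of complex V, one of the genes that encode the same c-ring subunit, was lower with TMM (-0.19, adjusted p = 0.0074) and had 0.01 without it.

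Complex V held the member with the largest fold change from WT in rd10 vehicle and rd10 TMB retinas, a gene of its membrane part. Atp5l (chr9:44912557-44920742, minus strand), subunit g, had 3.02, 3.83 and 6.18 CPM in rd10 TMB retinas, 2.56, 3.02 and 4.27 CPM in rd10 vehicle retinas, 5.59, 4.93, 5.50 and 6.50 CPM in rd10 DR retinas and 6.63, 8.82, 6.06 and 7.46 CPM in WT retinas. It was 2.24-fold lower in rd10 vehicle than in WT retinas (log2 fold change -1.16, SE 0.14, adjusted p = 4.6e-06, and -0.96 without TMM) and 1.79-fold lower in rd10 TMB retinas (-0.84, adjusted p = 0.00034). In rd10 DR retinas, which overlapped WT, it had -0.34 (adjusted p = 0.083). Since 76% of its stretches are shared with 10 other genes, these values are uncertain. Atp5k (chr5:108433244-108434448, minus strand), subunit e, which shares no such stretch, had 2.27, 2.99 and 3.30 CPM in rd10 TMB retinas, 2.59, 2.83 and 3.26 CPM in rd10 vehicle retinas, 2.58, 2.60, 3.23 and 2.57 CPM in rd10 DR retinas and 4.10, 4.24, 4.79 and 5.04 CPM in WT retinas. The rd10 groups overlapped each other and none reached WT. Its log2 fold change was -0.64 in rd10 vehicle (SE 0.10, adjusted p = 4.6e-05), -0.66 in rd10 TMB and -0.71 in rd10 DR retinas (SE 0.13, adjusted p = 0.0030). Atp5j2, subunit f, was 1.34-fold lower in rd10 vehicle retinas (-0.42, adjusted p = 0.00060).

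**Figure D3:**
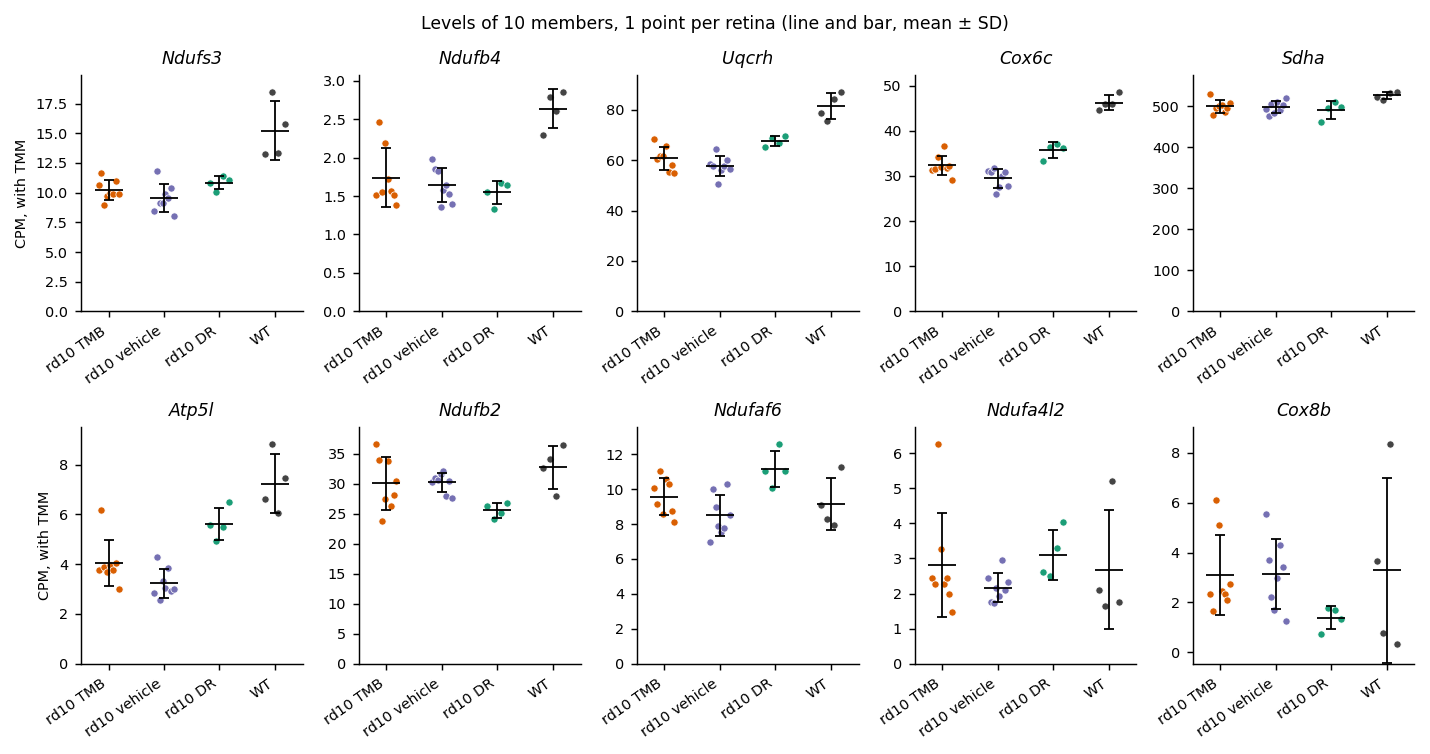
CPM with TMM of 10 members, with 1 point per retina and a line and bar for mean ± SD. Ndufs3, Uqcrh and Cox6c separate all rd10 retinas from WT, Sdha overlaps between rd10 and WT, and Cox8b in WT retinas spans 0.342 to 8.37 CPM.

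The drug diet was compared with base chow in light-exposed rd10 retinas. In rd10 TMB against rd10 vehicle, 0 of 90 members were called in either direction with TMM, while 5.69% of all genes were called. Without TMM the count was again 0, beside 8.38% of all genes. With DESeq2 it was 0, and at unadjusted p under 0.05 it was 4 higher and 0 lower. Among them were Uqcrc1, Cox6c and Atp5l, named after their values were seen, and each was also lower in rd10 vehicle than in WT retinas. Atp5l had a log2 fold change of 0.32 (95% interval 0.06 to 0.57, adjusted p = 0.15), Cox6c 0.13 (0.03 to 0.23, adjusted p = 0.13) and Uqcrc1 0.09 (adjusted p = 0.14). The range of Atp5l in rd10 TMB retinas reached 6.18 CPM through 1 retina, and the groups overlapped in these 3 genes. Other members with large estimates are listed with their 95% intervals. Ndufa4l2, a paralogue of Ndufa4 known to be induced by low oxygen, had 0.36 (-0.08 to 0.81), Ndufaf6 0.17 (0.00 to 0.34), Ndufaf8 0.15 (0.00 to 0.31), Ndufa1 0.15 (-0.01 to 0.30), Cox7c 0.15 (-0.01 to 0.31), Cox7a1 0.12 (-0.10 to 0.34) and Cox6b2 -0.13 (-0.30 to 0.05). The median over members was 0.00, as over all genes. Rod markers were higher on the drug diet in 17 of 20 cases (median log2 fold change 0.74), beside this count of 0 members.

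A test of whether the diet effect differed between females and males called 0 of 90 members and 0 of 20251 genes with edgeR, under either scaling. At unadjusted p under 0.05 there were 4 members, and DESeq2 was not run on it.

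Light-exposed and dark-kept rd10 retinas were then compared. In rd10 vehicle against rd10 DR, 16 members were lower and 3 higher with TMM, beside 20.6% and 21.9% of all genes, so that the share of members called lower (17.8%) was close to that of all genes and the share called higher (3.33%) was below it. Without TMM, 9 were lower and 17 higher, beside 13.9% and 31.6%. The count of 16 was 26 without rd10 DR replicate 1 and between 11 and 24 without any other single retina. The lower genes were 9 of complex I, 2 of complex III, 2 of complex IV and 3 of complex V. Atp5l was 1.74-fold lower (log2 fold change -0.80, SE 0.13, adjusted p = 0.00014), Cox6c had -0.28 (adjusted p = 0.0012), Cox7c -0.35 (adjusted p = 0.0097) and Uqcrh -0.23 (adjusted p = 0.0020). Ndufaf6, an assembly factor of complex I, was 1.32-fold lower (-0.40, adjusted p = 0.0058), with 6.98, 8.21 and 10.3 CPM in rd10 vehicle retinas and 11.04, 10.05, 12.56 and 11.02 CPM in rd10 DR retinas. Its level in WT retinas, 9.12, 8.26, 7.93 and 11.3 CPM, overlapped that in rd10 vehicle retinas. Ndufa4l2 was 1.43-fold lower (-0.52, adjusted p = 0.016), with 1.74, 2.13 and 2.94 CPM in rd10 vehicle and 2.61, 2.50, 3.29 and 4.04 CPM in rd10 DR retinas. It is known from pericytes. Of 12 pericyte and endothelial markers, 4 were higher and 2 lower in the same comparison (median log2 fold change 0.17), and their summed level was 982 to 1233 CPM in rd10 vehicle retinas, against 1288 to 1350 CPM in rd10 DR retinas. Their part in the result was not tested.

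The 3 genes higher in rd10 vehicle than in rd10 DR retinas, named because they are so few, kept their direction and call without TMM. Ndufb2 (chr6:39592574-39603382, plus strand), an accessory subunit of complex I, had 27.7, 30.5 and 32.2 CPM in rd10 vehicle retinas and 26.4, 24.1, 25.1 and 26.9 CPM in rd10 DR retinas, without overlap, or 1.18-fold more (log2 fold change 0.24, SE 0.05, adjusted p = 0.0023). In WT retinas it had 32.6, 34.1, 27.9 and 36.4 CPM. Ndufc2, another accessory subunit, had 61.7, 67.6 and 76.0 CPM in rd10 vehicle retinas and 55.5, 52.6, 58.9 and 60.8 CPM in rd10 DR retinas, 1.19-fold more (0.26, adjusted p = 0.0030). Cox8b was 2.25-fold higher (1.17, SE 0.35, adjusted p = 0.013), at 1.26, 3.21 and 5.55 CPM in rd10 vehicle and 0.748, 1.78, 1.71 and 1.32 CPM in rd10 DR retinas, which overlap. Leaving out single retinas ended the Cox8b call in 1 of 12 cases (adjusted p = 0.051). WT retinas spread wider, at 3.67, 0.75, 8.37 and 0.342 CPM. The markers of striated muscle, which uses this isoform, summed to between 32.7 and 41.4 CPM in rd10 vehicle retinas, between 30.7 and 34.3 CPM in rd10 DR retinas and between 28.2 and 31.6 CPM in WT retinas, of which 1 of 7 was higher and 1 lower in rd10 vehicle against rd10 DR. Their part in the result was not tested.

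The subunits from mitochondrial DNA gave another order of the groups. Of 12 such genes, 8 had a mean count of at least 100, namely mt-Nd1, mt-Nd2, mt-Nd3, mt-Nd4, mt-Nd5 and mt-Nd6 of complex I, mt-Cytb of complex III and mt-Co1 of complex IV. The mean counts of mt-Atp6, mt-Co2, mt-Nd4l and mt-Co3 were 0.292 to 19.4, beside 662043 for mt-Co1, and no subunit of complex V could be measured. The cause of these low counts was not tested, and they are not read as levels. With the TMM factors of the nuclear genes, the 8 genes summed to 26177 ± 2245 CPM, relative to the nuclear counts, in rd10 TMB retinas and 27024 ± 1988 in rd10 vehicle retinas (SD, n = 8 each). They summed to 22496, 19248, 23351 and 24467 in rd10 DR retinas and 28718, 26476, 29214 and 41886 in WT retinas. The dark-kept rd10 retinas were lowest by mean, but the highest of them (24467) passed the lowest rd10 TMB retina (24302). WT replicate 4 stood far above the other WT retinas.

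In rd10 vehicle against rd10 DR, 7 of the 8 mitochondrial genes were higher with edgeR and TMM, and all 8 without TMM, beside 21.9% and 31.6% of all nuclear genes, while in the same comparison 16 nuclear members were lower and 3 higher with TMM. Mt-Nd1 had a log2 fold change of 0.47 (SE 0.10, adjusted p = 0.0012), mt-Nd2 0.48 (adjusted p = 0.0017), mt-Nd3 0.81 (SE 0.21, adjusted p = 0.0060), mt-Co1 0.24 (adjusted p = 0.0081) and mt-Cytb 0.11 (adjusted p = 0.21). The mean count of mt-Nd3 was 112, just above the minimum, while the next lowest, mt-Nd6, had 61168. The count was 7 with any 1 retina left out. Scaled to the mitochondrial total, 3 were higher and 1 lower. In rd10 DR against WT, 7 of 8 were lower, beside 10.2% of nuclear genes, among them mt-Nd2 (-0.67) and mt-Cytb (-0.52, adjusted p = 0.011), while the count was 6 without WT replicate 4 and 4 without rd10 DR replicate 1 or 2. In rd10 TMB against rd10 vehicle 0 were called by edgeR under any of the 3 scalings, and 0 had an unadjusted p under 0.05. With TMM, 3 were lower than in WT retinas on base chow and 5 on the drug diet, beside 30.2% and 24.9% of nuclear genes, but 0 and 0 without TMM and 1 and 1 without WT replicate 4. The count of 3 became 5 without rd10 vehicle replicate 8, and that of 5 became 3 without rd10 TMB replicate 4 or 6. The gene left without WT replicate 4 was in both cases mt-Cytb, at -0.25 (adjusted p = 0.017) and -0.26 (adjusted p = 0.017).

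**Figure D4:**
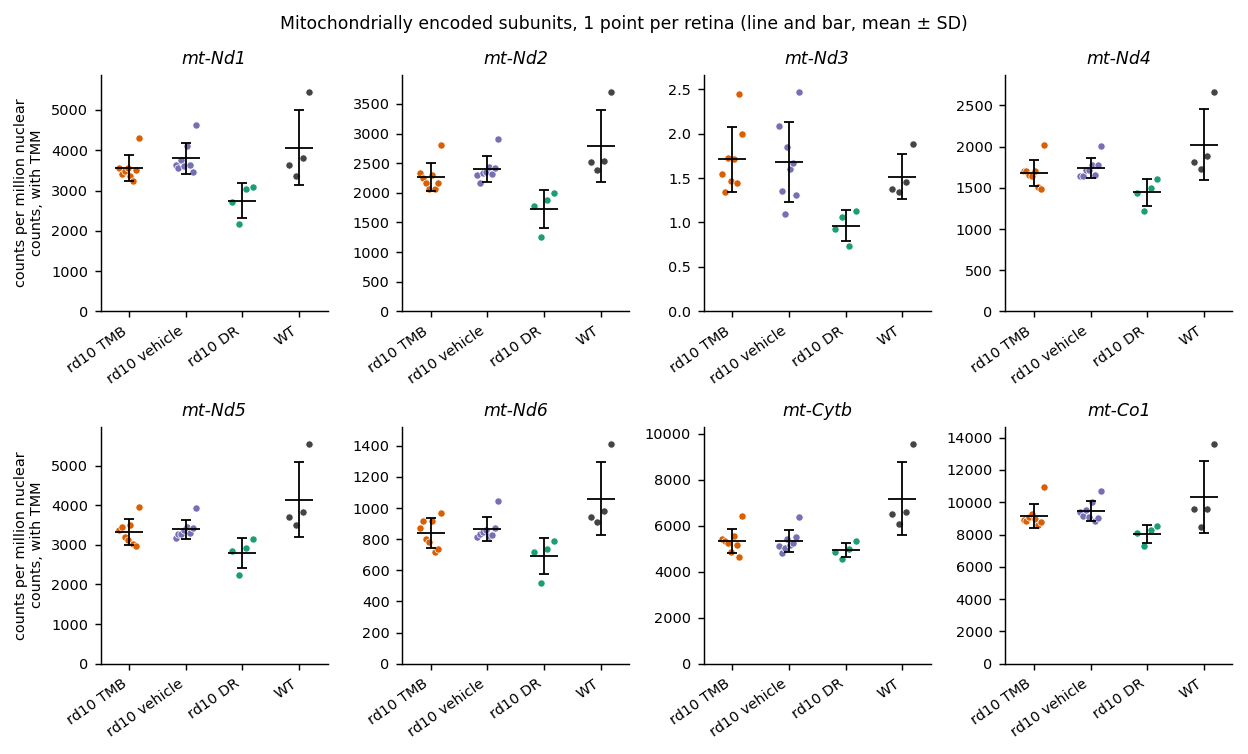
CPM relative to the nuclear counts, with TMM, of 8 subunits from mitochondrial DNA, with 1 point per retina and a line and bar for mean ± SD. The rd10 DR retinas lie lowest in each panel by mean, and WT replicate 4 is the highest WT point in each panel.

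Other groups of mitochondrial genes were counted in the same way. In rd10 vehicle against WT with TMM, 34 of 75 mitochondrial ribosomal protein genes were lower and 2 higher (median log2 fold change -0.14), as were 17 and 1 of 36 assembly factors outside the members, 9 and 2 of 21 genes of mitochondrial structure and transport, and 6 and 3 of 17 genes of pyruvate entry and the citric acid cycle. Over all genes 30.2% were lower and 31.6% higher, and the share of lower genes in the citric acid cycle group was close to that. Without TMM these 4 pairs of counts were 9 and 17, 6 and 13, 5 and 9, and 1 and 10, beside 17.2% and 45.0% of all genes, so here too the direction rested on the scaling. Of the electron carrier genes beside the members, Cyc1 was lower with TMM (-0.12, adjusted p = 0.022) and Cycs had -0.24 (adjusted p = 0.063). In rd10 TMB against rd10 vehicle edgeR called 0 of these genes with TMM. Without TMM the assembly factor gene Coa3 (-0.14, adjusted p = 0.041) and Mcu, the pore of the mitochondrial calcium uniporter (-0.15, adjusted p = 0.032), were lower, both named after their values were seen. At unadjusted p under 0.05 with TMM there were 0 lower and 2 higher ribosomal, 2 and 3 assembly, 1 and 1 structural and 0 citric acid cycle genes, and DESeq2 was not counted for them.

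Some regulators of mitochondrial biogenesis were lower under either scaling. The median log2 fold change of 18 such genes in rd10 vehicle against WT was -0.21 with TMM and -0.01 without it, beside -0.18 and 0.02 over the members. Of the 18, 9 were lower and 2 higher with TMM, beside 30.2% and 31.6% of all genes, and 6 and 4 without it, beside 17.2% and 45.0%. The gene of NRF1 itself was 1.67-fold lower (log2 fold change -0.74, adjusted p = 6.2e-07, and -0.54 without TMM). Its coactivators were lower too, Ppargc1a 1.59-fold (-0.67, adjusted p = 1.2e-07, and -0.47 without TMM) and Ppargc1b 2.67-fold (-1.42, adjusted p = 9.6e-08, and -1.22 without TMM). Yy1 and Gabpa were lower with TMM (both -0.21) and had -0.01 each without it. On the drug diet, 4 of the 18 were higher than on base chow and 0 lower, under either scaling, while 5.69% of all genes with TMM and 8.38% without it were called in either direction. These were Ppargc1a (0.22, adjusted p = 0.040), Ppargc1b (0.38, adjusted p = 0.038), Esrrb, an estrogen-related receptor (0.97, adjusted p = 0.026), and Polg2, an accessory subunit of the mitochondrial DNA polymerase (0.56, adjusted p = 0.028). Nrf1 had 0.18 (adjusted p = 0.089). These genes moved beside rod markers in the same comparisons, and the part of the rods was not tested.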

How the data were processed

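RNA was sequenced from the retinal tissue of 1 mouse per library, so replicates are separate animals, numbered by their order in the archive. Per the labels and the study's methods, the authors selected polyadenylated RNA with a kit that does not mark strand, used Trimmomatic for trimming, STAR for alignment to GRCm38 and HTSeq for counting per gene. The deposited values used here are raw counts per gene, with nuclear and mitochondrial genes in separate tables. The authors' columns of DESeq2 fold changes and p-values were not used. The sources differ on single or paired reads. The WT columns repeated between tables were equal, the number of columns matched to no sample was 0, and the number of rows that name no gene was 0. The nuclear total of each library, 56799680 to 86471014 counts, sets the precision. No source used here names the annotation release behind the counts. Positions and exon lengths are from GENCODE M21 on GRCm38, where 99.1% of the gene names were found.

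Each pair of groups was fitted alone with edgeR 4.0.16 (R 4.3.3) by the quasi-likelihood F test, after filterByExpr and TMM, with Benjamini-Hochberg adjustment over all genes tested and a threshold of 0.05. The standard error (SE) of a log2 fold change is its size over the root of F, and 95% intervals assume normal errors. CPM with TMM use factors over all 24 libraries, and RPKM divide these by the summed exon length. Mitochondrial subunits were fitted with the nuclear genes, their library sizes and factors. The fit was also run on counts simulated for rd10 TMB against rd10 vehicle, with changes balanced between the directions. That setting does not cover the comparisons against WT. The alternatives were no TMM, the members' own total as library size, DESeq2 1.42.0, DESeq2 size factors within edgeR, no filter on low counts, 1 fit over all groups, sex as a covariate, title prefixes apart or as a covariate, and each library left out. Leaving out libraries for the mitochondrial subunits was added after seeing the data.

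The members, the gene lists and the motifs were chosen with earlier results of these data known. Genes were named by these rules: the Sdh genes, the 3 members per other complex with the largest change in rd10 vehicle against WT among those called with and without TMM (with TMM alone where fewer than 3 were), the complex IV isoforms and subunit c genes, the 10 largest changes in rd10 TMB against rd10 vehicle, the 5 largest called in rd10 DR against WT, the genes at the count minimum and the mitochondrial subunits. Others are said to be named after their values were seen. The result of 1 member is not reported here.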

Additional observations from a re-analysis of the deposited data

Results flagged for a closer look

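In groups of 4 to 8 retinas, a retina was listed where its gap to the nearest other retina took up most of the range of its group, by Dixon's criterion at 95%. Of 204 groups examined, 23 had such a retina, and chance alone flags about 1 in 20, or 10.2. Among shares of member counts, rd10 vehicle replicate 3 was lowest for complex II at 10.03% (the others 10.3% to 10.5%), and complex V was highest at 36.5% in rd10 TMB replicate 1 and in rd10 DR replicate 1.

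Among members, in CPM with TMM, the highest retina stood apart for Sdhd in WT replicate 3 (75.5), Atp5l in rd10 TMB replicate 2 (6.18), Atp5k in rd10 DR replicate 3 (3.23) and Cox6b2 in rd10 TMB replicate 3 (9.19). Ndufa4l2 had 6.25 in rd10 TMB replicate 3 and 5.22 in WT replicate 3. The lowest retina stood apart for Cox4i2 in WT replicate 2 (19.7).

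The mitochondrial subunits made up 13 of the 23 cases, all of them the highest of their group, in CPM relative to the nuclear counts, with TMM. In rd10 TMB replicate 8 these were mt-Co1 (10940), mt-Nd1 (4292), mt-Nd2 (2804) and mt-Nd4 (2014). In rd10 vehicle replicate 8 they were mt-Cytb (6394), mt-Nd2 (2917), mt-Nd4 (2005), mt-Nd5 (3941) and mt-Nd6 (1048). In WT replicate 4 they were mt-Cytb (9543), mt-Nd2 (3701), mt-Nd5 (5539) and mt-Nd6 (1409). These genes share a genome and are not separate cases within a retina.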

How the results depend on the processing

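No paired analysis was possible because the replicate numbers only name the samples. The choice that changed the counts of members most was the scaling. Lower members in rd10 vehicle against WT numbered 51 with TMM, 20 without TMM and 22 with the members' own total as library size, and higher members 0, 17 and 17. For rd10 TMB against WT the lower counts were 46, 16 and 15 and the higher counts 0, 4 and 6, and the lower count was 20 with rd10 TMB retinas of prefix RD9 alone. For rd10 DR against WT the lower counts were 17, 7 and 3 and the higher counts 0, 1 and 1, and the lower count was 27 with DESeq2 and 29 in 1 fit over all groups. For rd10 vehicle against rd10 DR the lower count was 9 without TMM, and the higher count 17 without TMM and 12 with the own total, in place of 16 and 3. The counts for rd10 TMB against rd10 vehicle stayed at 0 under each alternative run.

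With 1 retina left out, the lower and higher counts ranged from 43 to 57 and 0 to 1 (rd10 vehicle against WT), 38 to 54 and 0 to 0 (rd10 TMB against WT), 11 to 26 and 0 to 1 (rd10 DR against WT), 0 to 0 and 0 to 0 (rd10 TMB against rd10 vehicle), and 11 to 26 and 2 to 4 (rd10 vehicle against rd10 DR). For mitochondrial subunits without TMM the lower counts became 0 in rd10 vehicle and 0 in rd10 TMB against WT, in place of 3 and 5. Scaled to their own total, the lower and higher counts were 3 and 2 in rd10 vehicle, 1 and 3 in rd10 TMB and 1 and 1 in rd10 DR against WT, and 1 and 3 in rd10 vehicle against rd10 DR. With 1 retina left out, the lower counts ranged from 1 to 5 in rd10 vehicle, 1 to 5 in rd10 TMB and 4 to 8 in rd10 DR against WT, and the higher count was 7 to 7 in rd10 vehicle against rd10 DR.

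Of 58 calls on named genes with TMM, 33 kept direction and call without it, 20 kept direction alone and 5 changed sign, all in rd10 vehicle against WT. These were Sdhc (0.0016), Sdhd (0.037), Cox7a2 (0.040), Cox7b (0.027) and Atp5g3 (0.013). With 1 retina left out, 614 of these calls were kept, 46 were lost and 0 changed sign. The cause of these changes was not tested. A shift of all members by one factor cannot be told from a shift of the scaling by these counts alone, since no added RNA standard was used here. Members under about 10 CPM, such as Ndufb4, Atp5k, Cox8b and Ndufa4l2, rest on the fewest counts.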
